A study of Mus musculus with 40 samples.

Results

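The comparison described here is how piericidin A altered the effect of LPS on gene expression in WT bone marrow-derived macrophages (BMDMs). It rests on 20 of the 40 RNA-seq libraries of the series, from 5 of its 10 mice, and asks which LPS-induced or LPS-repressed genes had a weaker, a larger or a preserved LPS effect when complex I was inhibited. BMDMs are macrophages grown from bone marrow with M-CSF. The labels name the strain of all mice C57/Bl6 and the genotypes VAV-Cre WT and VAV-Cre NDI1, and per the methods the mice were adult littermates of both sexes. NDI1 is a yeast NADH dehydrogenase, expressed from the Rosa26 locus after a stop cassette is removed by a Cre that the Vav1 promoter drives in hematopoietic cells, so expression is directed to the whole hematopoietic lineage and not to macrophages alone. The label of the WT mice names the Cre too. Cells of each mouse were left untreated, given LPS (100 ng ml–1) for 4 h, given piericidin A (500 nM), or pretreated with piericidin A during 30 min and then given LPS. All cultures, controls included, were differentiated in medium with methyl pyruvate and uridine, which support cells whose respiratory chain is blocked. The titles of the WT libraries carry the numbers 449, 452, 453, 496 and 520, each with 1 library per treatment. These numbers are taken here to be those of the 5 WT mice, and series of 5 values below are in this order.

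LPS, a component of the outer membrane of Gram-negative bacteria, is sensed by TLR4. The adaptor MyD88 leads to NF-κB and MAP kinases and to cytokine and chemokine genes, and the adaptor TRIF leads to IRF3, interferon-β and, through the interferon receptor, to interferon-stimulated genes. LPS also lowers many genes of resting macrophages. Complex I oxidizes NADH and feeds electrons into the mitochondrial respiratory chain, and piericidin A blocks it at its ubiquinone site. NDI1 oxidizes NADH without pumping protons and is not blocked by piericidin A.

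The interaction of a gene is its LPS effect with piericidin A (piericidin A with LPS minus piericidin A) less its LPS effect without it (LPS minus untreated), in log2 units. A negative interaction therefore means a smaller rise or a larger fall with LPS. It is also equal to the piericidin A effect under LPS less the piericidin A effect without LPS, so a smaller LPS effect can come from a changed level without LPS, a changed level with LPS, or both. Values were fitted from gene counts with edgeR's quasi-likelihood test with the mouse as a block, and a gene was called where the p-value, adjusted by the Benjamini-Hochberg method, lay under 0.05 over the 11456 genes tested. Log2 effects are given ± SE of the fit. CPM are counts scaled to library size, with TMM factors. They are not corrected for gene length, so no levels are compared between genes.

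The 20 WT libraries held between 6950748 and 12316515 counts. All 7 macrophage markers were expressed, with a summed level between 19370 and 37709 CPM. By edgeR, 0 of the 7 had a called interaction and 4 had an unadjusted p under 0.05. DESeq2 called 2 of them, and edgeR with no filter on low counts called 2. The 7 neutrophil markers (5 tested) summed to between 21.3 and 162 CPM in the libraries of the other 4 mice and to 440, 963, 1437 and 2573 CPM in the untreated, LPS, piericidin A and piericidin A with LPS libraries of mouse 496. Within every mouse this sum was highest with piericidin A and LPS. The interaction was called for 0 of the 5 tested neutrophil markers by edgeR (1 with an unadjusted p under 0.05) and for 0 by DESeq2 (1 unadjusted), and the 1 with the smallest p was Ngp (+0.54 ± 0.25, adjusted p = 0.166 by edgeR). With no filter on low counts, edgeR called 1 of the 5 neutrophil markers, and 3 had an unadjusted p under 0.05. The 6 stromal cell markers (3 tested) also stood apart in this mouse, with sums of 33.5, 61.3, 63.3 and 108 CPM in the same order against at most 20.3 CPM in the other mice. B cell, dendritic cell, and mast cell and basophil markers reached 14.0, 33.0 and 16.4 CPM in mouse 496 with piericidin A and LPS, and were higher there than in the other mice in each of the 3 treated groups. T and NK cell and erythroid markers summed to at most 1.40 and 0.246 CPM in any library. In bulk RNA, fewer cells of a type and less RNA per cell cannot be told apart. The part of RNA from these other cell types in the results below was not tested, and counts are also given without mouse 496.

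Piericidin A altered the LPS effect of 1653 of the 11456 genes (14.4%), with a higher interaction for 785 (6.85%) and a lower one for 868 (7.58%). Without the block, 354 genes were called. The mean LPS effect over cells with and without piericidin A was called for 8739 genes (76.3%) and gave the direction of LPS, with 4283 genes induced and 4456 repressed. By this direction, the induction of 667 genes and the repression of 610 genes were weakened, and the induction of 98 genes and the repression of 101 genes were enlarged. The class names follow the mean LPS effect, and the LPS effect had opposite signs with and without piericidin A for 57, 33, 17 and 21 genes of these classes, so that some enlarged repressions were not repressed by LPS alone. A further 177 genes with a called interaction had no called mean LPS effect. The median LPS effect of the 667 weakened inductions was +1.41 without piericidin A and +0.74 with it, and that of the 610 weakened repressions was −1.57 and −0.64. A response was taken as preserved where the interaction was not called, its 95% confidence interval lay within ±1 and the mean LPS effect was at least 1 in size. This held for 897 inductions, whose median LPS effect was +1.78 without and +1.66 with piericidin A, and for 399 repressions (−1.32 and −1.25). With the interval held within ±0.5, 249 inductions and 56 repressions were preserved. The altered classes had no minimum LPS effect, and 344 of the weakened inductions and 342 of the weakened repressions reached a mean of 1 in size. The class of enlarged repressions depends most on how the direction of LPS is set, since it held 42 genes when LPS minus untreated alone gave the direction. The other 2621 induced and 3346 repressed genes had no called interaction and did not meet both conditions for a preserved response, and 548 and 688 of them reached a mean LPS effect of at least 1 in size.

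**Figure D1:**
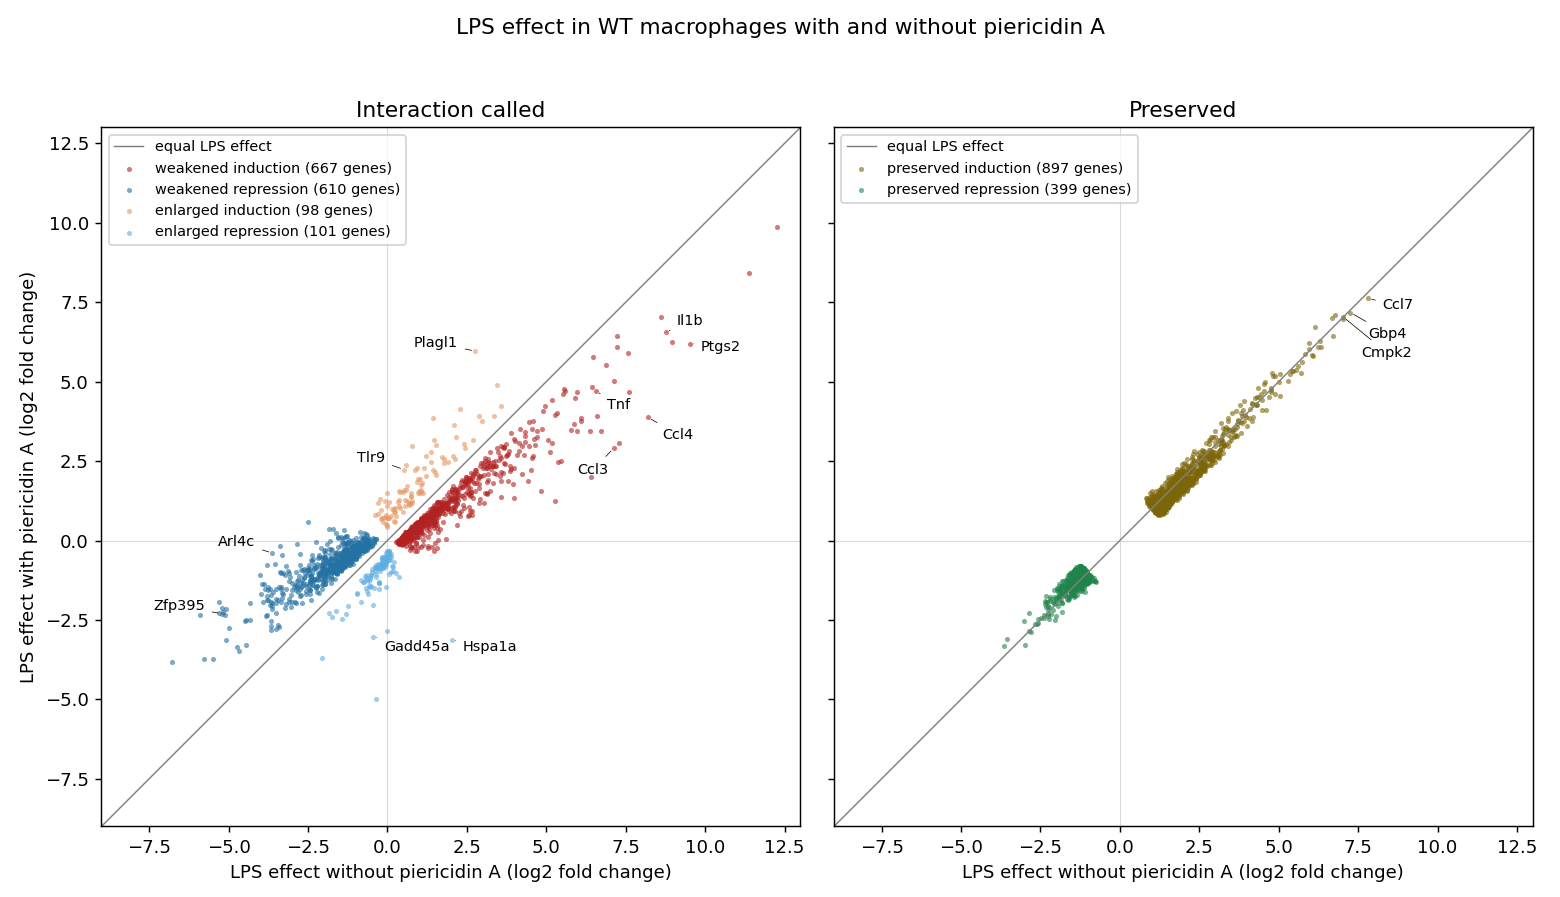
LPS effect with piericidin A (vertical axis, log2 fold change) against the LPS effect without it (horizontal axis), 1 point per gene, for the 4 classes with a called interaction (left) and the preserved genes (right). The grey line marks equal effects. The 667 weakened inductions lie below it, mostly on the right, and the 610 weakened repressions above it, mostly on the left, while the 897 and 399 preserved genes lie along it.

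The sign of the interaction was the same in all 5 mice for 631 of the 667 weakened inductions and 557 of the 610 weakened repressions, and for 30.6% of all genes tested. The classes were called on these same values, so the agreement is a description. The size of the interaction differed between mice. The median interaction over the weakened inductions was −0.56, −0.38, −0.57, −0.86 and −0.79, and over the weakened repressions it was +0.76, +0.46, +0.62, +1.32 and +1.11, so mice 496 and 520 moved most and mouse 452 least in both. Leaving out mouse 496, which also had the high neutrophil and stromal markers, left 706 called genes, 692 of them among the 1653. Without mouse 520 there were 750, and without mouse 449 there were 980. Of the 104 named genes that had a called interaction, 45 kept the call without the block and 63 whichever 1 mouse was left out. With no filter on low counts 8 lost it (Naip2, Pdhb, Gars, Qars, Manf, Pdia4, Irak4 and Ndufs4), and with all 40 libraries in the fit 3 did (Mx2, Rsad2 and Ndufs4).

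The weakening arose at different ends of the comparison. Piericidin A by itself changed 3562 genes without LPS (31.1%) and 3610 under LPS (31.5%). Of all genes tested it raised 15.7% and lowered 15.3% without LPS, and raised 14.5% and lowered 17% under LPS. Of the 667 weakened inductions, 388 were raised by piericidin A without LPS, and 313 were lowered by it under LPS. The piericidin A effect was called without LPS alone for 295 of them and under LPS alone for 247, while 61 were called in both with opposite directions. Of the 610 weakened repressions, 270 were lowered without LPS and 398 were raised under LPS. For these, 177 were called without LPS alone, 288 under LPS alone and 89 in both with opposite directions. These comparisons share libraries with the interaction, so the counts describe where the change lay and are no further support for it. LPS no longer had a called effect with piericidin A for 159 of the weakened inductions (23.8%) and 171 of the weakened repressions (28%), against 23.8% of the 8161 genes with a called LPS effect without it, shares near that of all genes.

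**Figure D2:**
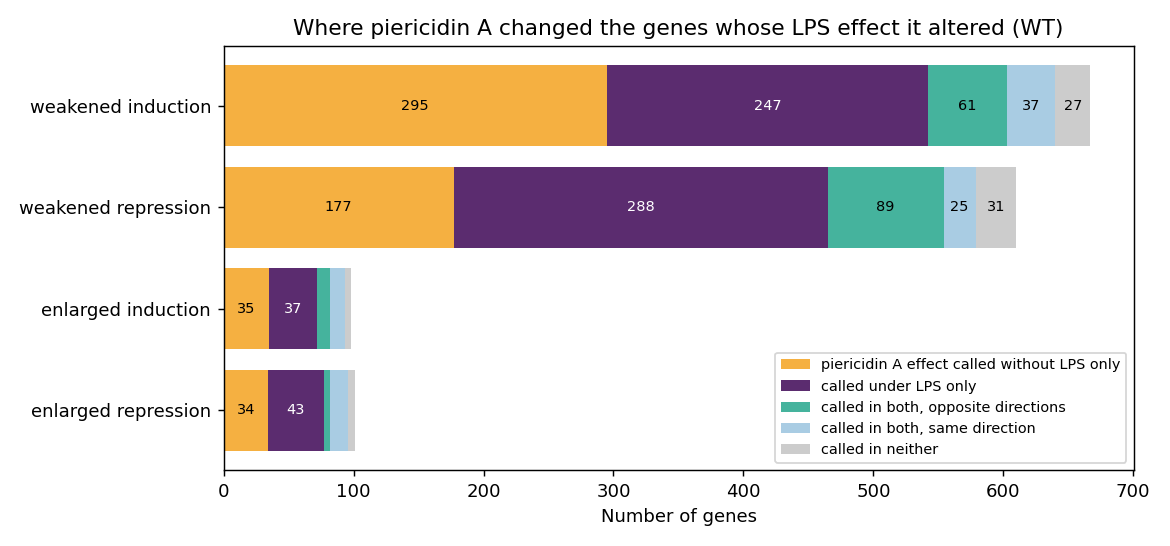
Number of genes (horizontal axis) in each class with a called interaction (rows), split by whether the piericidin A effect was called without LPS, under LPS, in both or in neither. In the weakened inductions 295 genes were called without LPS alone and 247 under LPS alone, and in the weakened repressions 177 and 288.

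The named weakened inductions with the largest interactions included chemokine genes whose level piericidin A raised without LPS. Ccl3 and Ccl4 encode MIP-1α and MIP-1β, chemokines that attract monocytes and T cells. Untreated cells had 10.8, 13.3, 5.7, 14.3 and 16.4 CPM of Ccl3. Piericidin A alone gave 162, 76.5, 55.5, 562 and 430.4 CPM. LPS gave 1985, 1597, 894, 2162 and 1463 CPM, and LPS after piericidin A 1794, 1266, 696, 2102 and 2055 CPM. The piericidin A libraries lay above all untreated libraries, while the LPS libraries with and without piericidin A overlapped. The LPS effect of Ccl3 was +7.12 without and +2.90 with piericidin A (interaction −4.22 ± 0.43, adjusted p = 1.02e-05). Ccl4 went the same way, between 3.75 and 10.5 CPM in untreated cells and between 42.9 and 636 CPM with piericidin A, against between 1111 and 2746 CPM with LPS and between 1448 and 4423 CPM with both (interaction −4.33 ± 0.53, adjusted p = 4.98e-05). Cxcl2, a neutrophil chemoattractant, was between 3.89 and 18.3 CPM untreated and between 20 and 321 CPM with piericidin A (interaction −2.96 ± 0.46, adjusted p = 0.000374), a call that was lost without the block. With LPS it was between 176 and 433 CPM and with both between 169 and 925 CPM, higher with both in every mouse but 453. Ccrl2, a chemerin receptor, was raised by piericidin A without LPS (+4.03 ± 0.31) and less so under LPS (+1.12 ± 0.27), with an interaction of −2.91 ± 0.39, adjusted p = 9.54e-05.

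The RefSeq promoters (250 bases before the start, build GRCm38.p6, written 5′ to 3′ on the strand of the gene) of Ccl3 (chr11:83649379-83649628, minus strand) and Cxcl2 (chr5:90903649-90903898, plus strand) are shown because both genes were raised by piericidin A without LPS and had a smaller fold response to LPS after it. In Ccl3 the capitals mark a match to the core of an interferon-stimulated response element (ISRE, GAAANNGAA on either strand), and in Cxcl2 a pair of overlapping NF-κB matches. A match is a description and no evidence of binding.
Ccl3: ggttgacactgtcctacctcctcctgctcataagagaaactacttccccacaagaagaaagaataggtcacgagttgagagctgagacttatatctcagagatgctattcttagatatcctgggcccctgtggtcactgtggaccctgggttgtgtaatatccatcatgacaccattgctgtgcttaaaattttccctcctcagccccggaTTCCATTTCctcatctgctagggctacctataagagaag
Cxcl2: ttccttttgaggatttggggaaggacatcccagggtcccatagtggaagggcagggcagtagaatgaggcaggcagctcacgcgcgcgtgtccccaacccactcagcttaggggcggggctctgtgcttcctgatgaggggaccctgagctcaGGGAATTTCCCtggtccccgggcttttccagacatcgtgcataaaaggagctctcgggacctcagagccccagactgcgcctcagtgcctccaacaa

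The other named weakened inductions differed in whether the change lay before LPS, under LPS or in both. Ptgs2, the inducible cyclooxygenase (COX-2) of prostaglandin synthesis, had 2.02, 1.17, 1.48, 3.39 and 1.32 CPM in untreated cells and 9.99, 6.08, 16, 14.7 and 17 CPM with piericidin A. It reached 2088, 1046, 751, 1817 and 1328 CPM with LPS and 1765, 773, 452, 1196 and 899.8 CPM with both. The LPS libraries with and without piericidin A overlapped, although each mouse was lower with it, and the LPS effect was +9.53 and +6.20 (interaction −3.33 ± 0.40, adjusted p = 4.57e-05). Hcar2, a receptor for nicotinic acid and β-hydroxybutyrate, also rose with piericidin A before LPS (+2.80 ± 0.29) and was not called under LPS (−0.11 ± 0.17, adjusted p = 0.64), with an interaction of −2.92 ± 0.34, adjusted p = 3.52e-05. Clic5, a chloride intracellular channel protein, was raised without LPS (+3.48 ± 0.39) and lowered under LPS (−0.92 ± 0.21), with the largest interaction of the named weakened inductions (−4.41 ± 0.45, adjusted p = 8.98e-06). Lipg, endothelial lipase, differed from these in being lowered under LPS (−1.52 ± 0.17, adjusted p = 8.81e-06) with no called piericidin A effect before it (+1.44 ± 0.70). Its interaction (−2.96 ± 0.73, adjusted p = 0.0108) was no longer called without the block or without mouse 449. Untreated cells had between 0.126 and 0.556 CPM of Clic5, between 0.081 and 0.185 CPM of Lipg and between 0.067 and 1.45 CPM of Hcar2. The sizes of these interactions therefore rest on few counts there.

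Of the cytokine and inflammasome genes that the study is centred on, Il1b, the gene of pro-interleukin-1β, had a weakened induction. Its levels were 2.92, 3.65, 3.42, 4.1 and 3.53 CPM untreated and 8.86, 7.67, 7.38, 18 and 5.83 CPM with piericidin A. With LPS they were 1667, 1218, 1030, 2762 and 1403 CPM, and with both 1265, 1028, 915, 798 and 340.1 CPM. Each mouse was higher with piericidin A before LPS and lower with it under LPS, where mice 496 and 520 fell most. The LPS effect fell from +8.77 to +6.56 (interaction −2.21 ± 0.38, adjusted p = 0.000776), and both the piericidin A effect without LPS (+1.34 ± 0.30, adjusted p = 0.0023) and that under LPS (−0.87 ± 0.23, adjusted p = 0.00788) were called. Tnf, in contrast, was 10.5, 19.2, 7.91, 19.3 and 38.4 CPM untreated, 30.3, 47.4, 17.3, 176 and 202 CPM with piericidin A, 1646, 1693, 1011, 2100 and 1270 CPM with LPS and 1991, 1681, 907, 2540 and 2426 CPM with both. The levels under LPS overlapped (piericidin A effect +0.19 ± 0.32, adjusted p = 0.691), and the interaction (−1.87 ± 0.48, adjusted p = 0.0133) lay at the level without LPS, with mouse 496 farthest from the others and the call lost without it or without the block. Nlrp3, the sensor of the NLRP3 inflammasome, had an LPS effect of +4.23 without and +2.96 with piericidin A (interaction −1.27 ± 0.37, adjusted p = 0.0257), a call lost without the block or mouse 452, 453 or 496. Casp1, the caspase that cleaves pro-interleukin-1β, was lowered under LPS (−0.71 ± 0.12) and had an interaction of −0.61 ± 0.17, adjusted p = 0.0232, a call lost without the block or mouse 453, 496 or 520. Pycard, the adaptor ASC, was within the bound for a preserved response (interaction −0.30 ± 0.21, adjusted p = 0.346), and overlaps another annotated gene, which makes its count less certain. Il10, an anti-inflammatory cytokine, was between 49.9 and 97.6 CPM with LPS and between 53.9 and 92.1 CPM with both, and its interaction of +0.63 ± 0.37, adjusted p = 0.268 was neither called nor bounded.

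**Figure D3:**
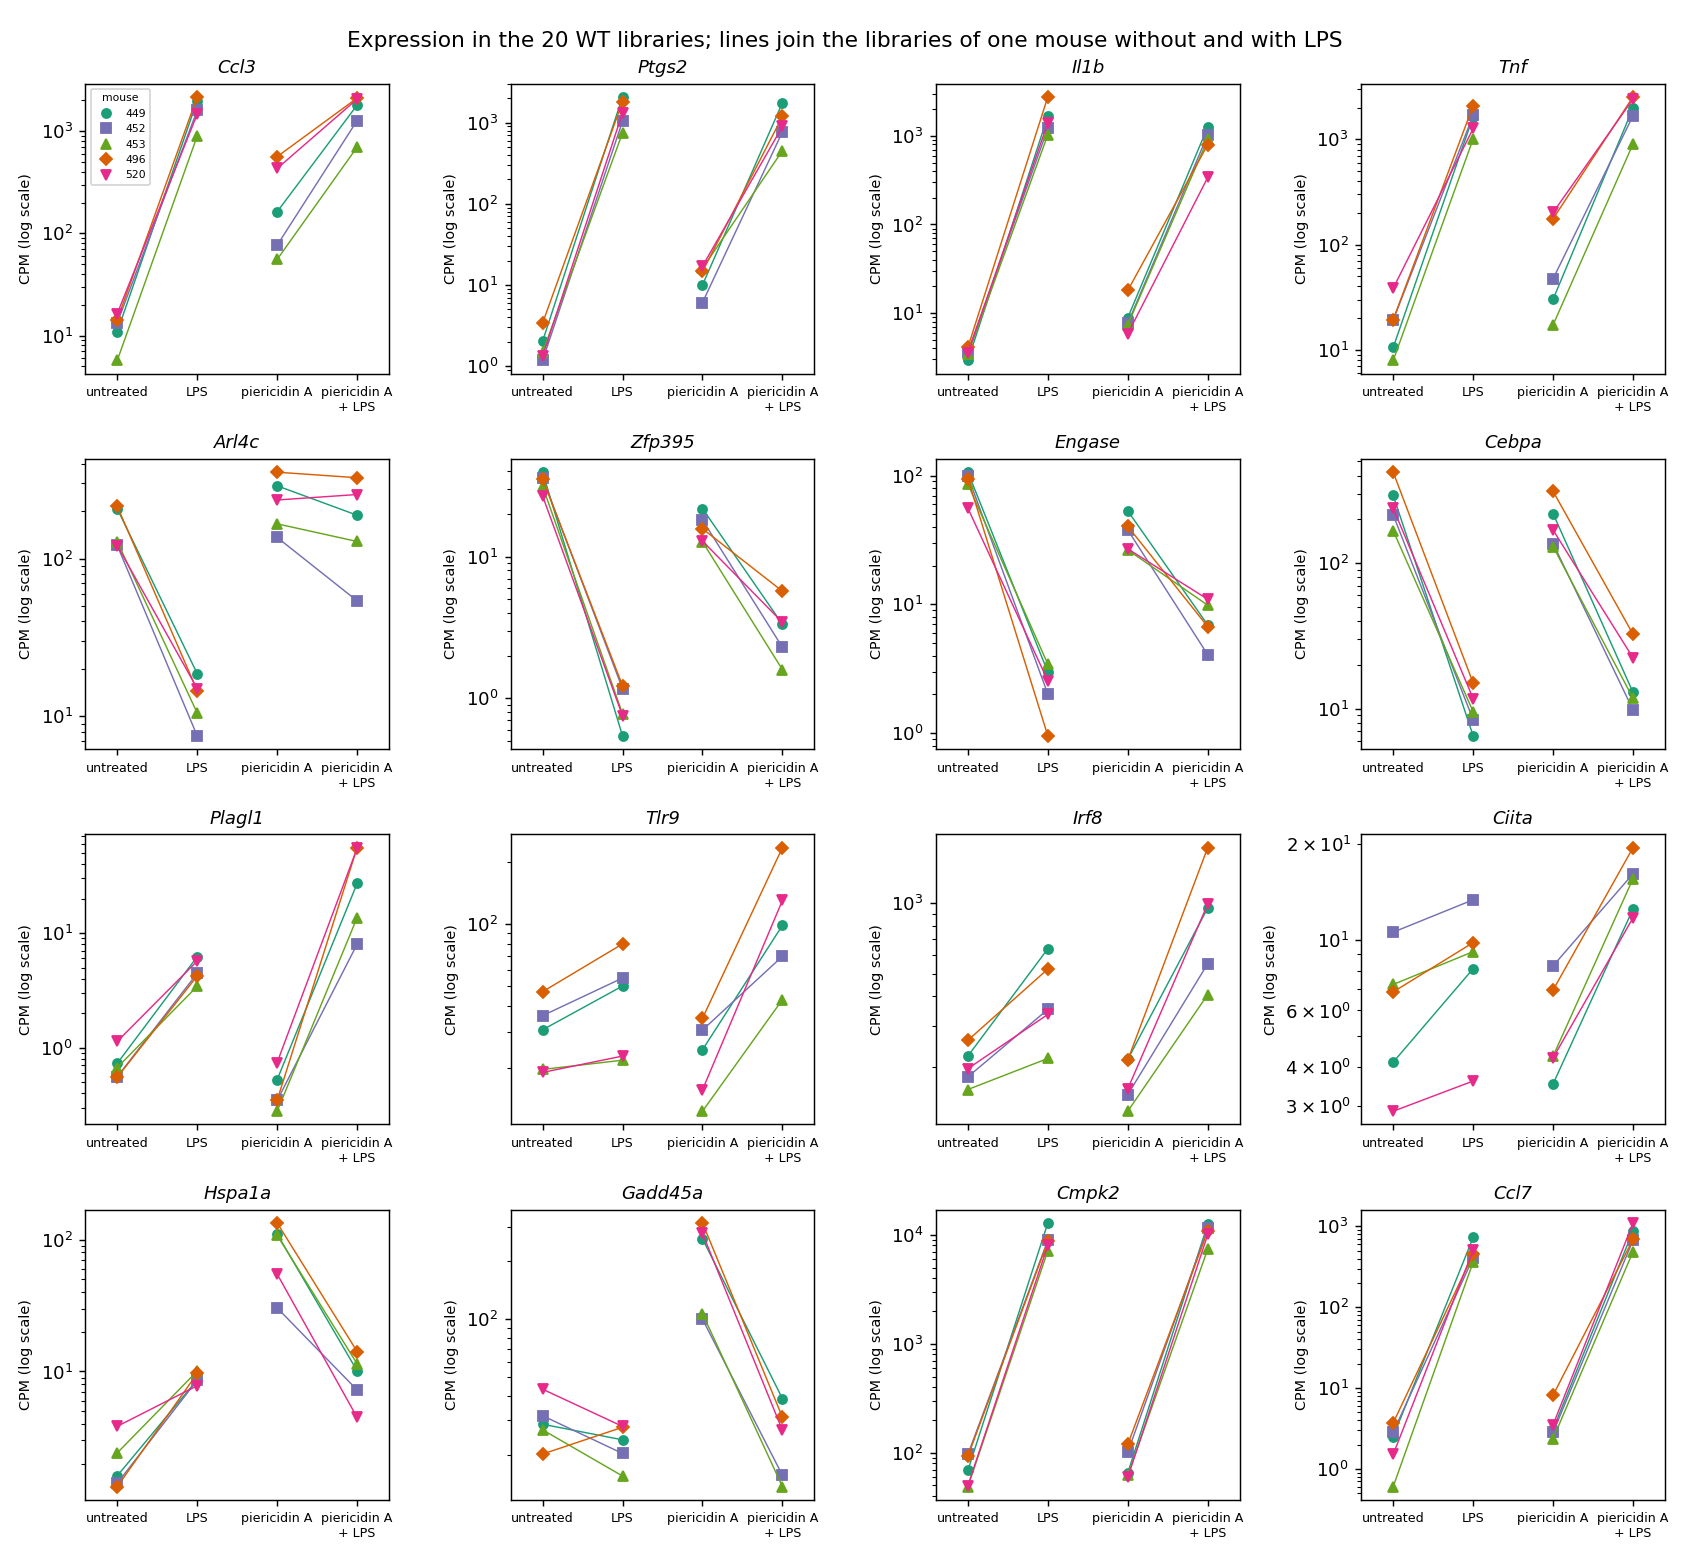
CPM (log scale) of 16 genes in the 20 WT libraries. Each symbol is 1 library and each colour 1 mouse, and lines join the libraries of a mouse without and with LPS, on the left without and on the right with piericidin A. Ccl3, Ptgs2, Il1b and Tnf start higher with piericidin A, Arl4c, Zfp395, Engase and Cebpa fall less with LPS after it, Plagl1, Tlr9, Irf8 and Ciita rise more, Hspa1a and Gadd45a are highest with piericidin A alone, and the lines of Cmpk2 and Ccl7 are parallel.

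The named weakened repressions fell less with LPS after piericidin A. Arl4c, a small GTPase and target of the oxysterol receptor LXR, had 207, 121, 128, 214 and 121 CPM in untreated cells and 18.7, 7.53, 10.5, 14.6 and 15 CPM with LPS. With piericidin A the levels were 289, 136, 166, 353 and 235 CPM before and 188, 54, 128, 326 and 255 CPM after LPS. All 5 libraries with both lay above all 5 LPS libraries, and the LPS effect moved from −3.62 to −0.40 (interaction +3.23 ± 0.29, adjusted p = 2.46e-06). Zfp395 (a zinc finger protein) went from 0.541, 1.17, 0.774, 1.23 and 0.751 CPM with LPS to 3.33, 2.29, 1.59, 5.69 and 3.43 CPM with both, again without overlap, while piericidin A lowered it before LPS (−1.07 ± 0.14), so both ends narrowed the response (interaction +2.92 ± 0.33, adjusted p = 2.64e-05). Engase, a cytosolic enzyme that cuts glycans from proteins, did the same (−1.27 ± 0.20 before and +1.68 ± 0.33 under LPS, interaction +2.95 ± 0.39, adjusted p = 8.62e-05). Fam214a lay between 0 and 0.636 CPM with LPS and between 0.381 and 3.3 CPM with both, groups that overlapped by 1 library, and its interaction (+3.36 ± 0.65, adjusted p = 0.00199) rests on few counts with LPS. Angptl4, an inhibitor of lipoprotein lipase, was lowered by piericidin A before LPS (−1.79 ± 0.25) and not called under it (+1.28 ± 0.58, interaction +3.07 ± 0.62, adjusted p = 0.0031, call lost without the block or mouse 496, with an interaction of +1.73 without that mouse). Bmf, a pro-apoptotic BH3-only protein, was also lowered before LPS (−2.19 ± 0.26), and its interaction (+2.97 ± 0.96, adjusted p = 0.0441) was lost without the block or without mouse 449, 453, 496 or 520, with a value of +1.96 without mouse 496. With LPS, Angptl4 was between 0 and 1.08 CPM and Bmf between 0.221 and 0.424 CPM, so the sizes of both interactions rest on few counts. Abhd15 (interaction +3.07 ± 0.42, adjusted p = 0.000124) and Pdxk, the kinase of vitamin B6 (+2.88 ± 0.47, adjusted p = 0.000583), both rose under LPS with piericidin A. Both overlap other annotated genes over more than 10% of their exons, which makes their counts less certain.

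The named enlarged inductions rose further with LPS after piericidin A. Plagl1, an imprinted zinc finger gene, was between 0.552 and 1.13 CPM in untreated cells and between 0.278 and 0.741 CPM with piericidin A. It was 6.22, 4.45, 3.43, 4.22 and 5.71 CPM with LPS and 27.1, 8, 13.7, 55.8 and 55 CPM with both. The 5 libraries with both lay above every other library, and the LPS effect was +2.77 without and +5.96 with piericidin A (interaction +3.20 ± 0.61, adjusted p = 0.00198). Tlr9, the endosomal receptor for unmethylated CpG DNA, was 49.9, 54.6, 21.8, 79.9 and 22.8 CPM with LPS and 98.4, 69.6, 42.9, 235 and 130 CPM with both, higher in each of the 5 mice although the groups overlapped (interaction +1.71 ± 0.31, adjusted p = 0.0012). Tspan33, a tetraspanin, had an LPS effect of +0.58 and +2.36 (interaction +1.78 ± 0.37, adjusted p = 0.00395). The calls of Tlr9 and Tspan33 were lost without the block. Arhgap28, a GTPase-activating protein, was raised under LPS (+3.03 ± 0.37, interaction +2.20 ± 0.56, adjusted p = 0.0127, call lost without mouse 520). A630072M18Rik (interaction +1.85 ± 0.28, adjusted p = 0.000296) shares nearly all its exonic bases with another gene, so its count is uncertain.

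The named enlarged repressions, with 1 exception, were genes that piericidin A raised without LPS and whose level under LPS it did not significantly change. Gadd45a, a stress-induced growth arrest gene, was 28.7, 31.7, 26.8, 20.1 and 43.4 CPM untreated and 23.8, 20.2, 15.5, 27.6 and 27.9 CPM with LPS. Piericidin A alone brought it to 259.5, 99.9, 107, 313 and 276 CPM, above all other libraries, and with both it was 38.8, 15.6, 13.7, 31.1 and 26.6 CPM. The LPS effect was −0.45 without and −3.02 with piericidin A (interaction −2.58 ± 0.33, adjusted p = 6.41e-05), and the count is less certain because the gene overlaps another. Chac1, a glutathione-degrading enzyme of the integrated stress response, had no called LPS effect without piericidin A (−0.019) and a fall with it (−2.85, interaction −2.83 ± 0.64, adjusted p = 0.00636, call lost without the block or mouse 496). Untreated cells had 5.23 CPM of Chac1 in mouse 520 and between 0.201 and 0.49 CPM in the other mice, so these sizes rest on few counts. Nr1d1, the clock repressor REV-ERBα, was raised by piericidin A without LPS (+1.84 ± 0.23) and its interaction was −1.62 ± 0.49, adjusted p = 0.033, a call lost without the block or mouse 453, 496 or 520. Pdgfb, a platelet-derived growth factor chain, differed from these, since piericidin A lowered it under LPS (−1.85 ± 0.17) and not before (−0.28 ± 0.15), with an interaction of −1.57 ± 0.23, adjusted p = 0.000218. Among all 101 genes of the class, 51 were raised by piericidin A without LPS (15.7% of all genes) and 50 were lowered by it under LPS (17%), on the libraries that chose the class.

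For 58 genes the LPS effect was called in both arms in opposite directions, 35 of them raised by LPS without and lowered by LPS with piericidin A, and 23 the reverse. The largest such reversals among genes of the heat shock response were Hspa1a and Hspa1b, which encode the inducible cytosolic chaperone HSP70. Hspa1a was 1.62, 1.42, 2.41, 1.34 and 3.84 CPM untreated and 8.66, 8.59, 10.1, 9.67 and 7.81 CPM with LPS. With piericidin A it was 110.2, 30.3, 108, 134 and 54.7 CPM without and 10.1, 7.24, 11.4, 14.2 and 4.49 CPM with LPS. The piericidin A libraries lay above all others, and the LPS libraries with and without piericidin A overlapped. Hspa1a falls in the class of enlarged repressions by its mean LPS effect, although LPS raised it by +2.03 without piericidin A and lowered it only with piericidin A (−3.13, interaction −5.16 ± 0.44, adjusted p = 1.41e-06). Hspa1b went from +2.60 to −2.12 (interaction −4.73 ± 0.40, adjusted p = 1.41e-06). These genes are near-identical copies, so reads can be split or lost between them, and their 250-base promoters, shown because the pair carried the largest reversal among the list genes, were identical at 247 of 250 bases. The capitals mark the match to a heat shock element (HSE, GAANNTTC, a motif added after the values were seen), which 4.97% of the promoters of tested genes hold. Hspa1a lies at chr17:34972157-34972406 and Hspa1b at chr17:34959239-34959488, both on the minus strand of GRCm38.p6.
Hspa1a: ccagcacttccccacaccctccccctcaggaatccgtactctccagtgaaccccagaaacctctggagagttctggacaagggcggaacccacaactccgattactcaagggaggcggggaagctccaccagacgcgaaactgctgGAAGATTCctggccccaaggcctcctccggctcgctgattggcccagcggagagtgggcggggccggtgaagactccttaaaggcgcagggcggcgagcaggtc
Hspa1b: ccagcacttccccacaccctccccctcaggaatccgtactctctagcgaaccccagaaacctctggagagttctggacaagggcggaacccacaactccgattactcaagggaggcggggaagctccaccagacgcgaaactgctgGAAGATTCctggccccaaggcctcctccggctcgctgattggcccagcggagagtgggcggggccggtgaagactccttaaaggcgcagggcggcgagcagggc

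Further genes with opposite LPS effects were named after their values were seen. Spic, a transcription factor of iron-recycling macrophages, went from +0.73 to −1.60 (interaction −2.33 ± 0.44, adjusted p = 0.00162), and Bcl2l1, the anti-apoptotic BCL-XL, from +1.16 to −0.81 (−1.98 ± 0.22, adjusted p = 2.44e-05). Bub1b, a mitotic checkpoint kinase, went the other way, from −0.99 to +1.27 (+2.26 ± 0.45, adjusted p = 0.00255), as did Tubb2a, a β-tubulin, from −1.02 to +0.45 (+1.47 ± 0.27, adjusted p = 0.00151). The sign of the interaction of these 4 genes was the same in all 5 mice.

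The preserved genes with the largest LPS effects were 5 interferon-inducible genes and a monocyte chemokine gene. Ccl7 (MCP-3), a ligand of CCR2, was 730, 408, 362, 451 and 507 CPM with LPS and 882, 675, 488, 692 and 1102 CPM with both, against between 0.604 and 3.71 CPM untreated and between 2.37 and 8.18 CPM with piericidin A. Its LPS effect was +7.81 and +7.62 (interaction −0.20 ± 0.38, adjusted p = 0.779), while its level was higher with piericidin A under LPS in each mouse (+0.63 ± 0.21, adjusted p = 0.0259). Cmpk2, a mitochondrial nucleotide kinase induced by interferon, was 12850, 8917, 7134, 8690 and 8005 CPM with LPS and 12540, 11560, 7389, 10810 and 10080 CPM with both. The groups overlapped and the LPS effect was +7.04 and +7.03 (interaction −0.0083 ± 0.21, adjusted p = 0.985). Gbp4 and Gbp2b, interferon-induced GTPases, had interactions of −0.084 ± 0.33, adjusted p = 0.896 and of −0.059 ± 0.36, adjusted p = 0.934. For Iigp1, an immunity-related GTPase, piericidin A lowered the level both without LPS (−0.79 ± 0.19) and under LPS (−0.48 ± 0.14), with an interaction of +0.31 ± 0.24, adjusted p = 0.411. Tnfsf10, the gene of TRAIL, was also lowered in both (−1.05 ± 0.24 and −0.71 ± 0.16, interaction +0.34 ± 0.29, adjusted p = 0.458). Over the 897 preserved inductions, piericidin A lowered 209 without LPS and 392 under LPS (15.3% and 17% of all genes) and raised 69 and 53 (15.7% and 14.5%).

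Gene lists were described by how many of their tested members had a called interaction, read against 14.4% of all genes tested (6.85% higher, 7.58% lower), and by the median interaction, which was −0.030 over all genes tested. Higher and lower refer here to the interaction and not to the level under LPS. The counts are descriptions, and without the block no list had more than 6 called members. With no filter on low counts the count moved by over 1.5 times to 11 of 19 inflammatory cytokine, 7 of 33 interferon-stimulated, 7 of 12 costimulatory, 5 of 10 MHC class II, 5 of 20 macrophage identity and 8 of 26 cell cycle genes, and to 2 of 18 unfolded protein response, 1 of 20 tRNA synthetase and 0 of 36 complex I genes. DESeq2 moved it so for 3 lists, to 5 of 33 interferon-stimulated, 3 of 9 MHC class II and 5 of 20 macrophage identity genes. RLE factors moved it so for the MHC class II genes, to 2 of 9. Of 17 tested inflammatory cytokine genes, 7 had a called interaction, all lower, with a list median of −1.08. These included Il1a (−2.70 ± 0.41, adjusted p = 0.000296, a less certain count because it overlaps another gene), Il1rn, the antagonist of the interleukin-1 receptor (−1.33 ± 0.16, adjusted p = 5.51e-05), and Il18 (−1.08 ± 0.22, adjusted p = 0.00343) beside Il1b. Under LPS, Il1rn was higher with piericidin A in each mouse (between 1759 and 3053 CPM, against between 1304 and 2129 CPM without it). Il18 was lower in each mouse (between 12.4 and 21.6 CPM, against between 21.6 and 54.2 CPM). Untreated cells had between 0 and 1.97 CPM of Il1a, so the size of its interaction rests on few counts. The count of this list was 7 whichever 1 mouse was left out and 2 without the block. Of 23 chemokine and chemokine receptor genes, 10 were lower and 3 higher (median −0.56), and 8 were called without mouse 496 and 8 without mouse 520. Of 16 inflammasome genes, 5 were lower and 3 higher (median −0.31). The lower ones included Gsdmd, the pore-forming gasdermin D (−0.63 ± 0.15, adjusted p = 0.00962), and Naip2 (−0.39 ± 0.10, adjusted p = 0.0183), and the higher ones were repressed genes, among them the ATP-gated channel gene P2rx7 (+0.95 ± 0.17, adjusted p = 0.00132) and the sensor gene Nlrp1b (+1.72 ± 0.38, adjusted p = 0.00546). This count was 3 without mouse 496, 4 without mouse 453 or 520 and 5 without mouse 452, and the calls of Gsdmd and Naip2 were each lost without some of the mice. Those of Il1a, Il18, Nlrp1b, Gsdmd and Naip2 were lost without the block.

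All 33 tested interferon-stimulated genes were induced by LPS, 25 of them met the definition of a preserved induction, and 2 had a called interaction (6.06%), both lower. The list median was −0.12. The called members were Mx2 (−0.70 ± 0.22, adjusted p = 0.0376) and Rsad2 (−0.79 ± 0.25, adjusted p = 0.042), both antiviral effectors. Both calls were lost without mouse 449, 453, 496 or 520 and without the block, while 4 members were called without mouse 452. DESeq2 called 5 of the 33, beside 1917 of all 11456 genes, and edgeR with no filter called 7, beside 1888 of 22440, so the low share of this list depends on the test and the filter. By edgeR with the filter, 10 of the 33 had an unadjusted p under 0.05. The interactions of the list lay between −0.83 and +0.51. Piericidin A lowered 15 of the 33 under LPS and 8 without LPS (17% and 15.3% of all genes) and raised 4 and 2 (14.5% and 15.7%).

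Of 21 genes of NF-κB and cytokine feedback, which hold NF-κB subunits beside negative regulators of the LPS response, 21 were induced by LPS and 11 had a called interaction, all lower (52.4%, median −0.74). Among them were Zc3h12a, the mRNA-degrading Regnase-1 (−1.50 ± 0.21, adjusted p = 0.000193), Zfp36, the mRNA-destabilizing tristetraprolin (−1.29 ± 0.21, adjusted p = 0.000465), Tnfaip3, the ubiquitin-editing A20 (−1.37 ± 0.23, adjusted p = 0.000583), and its partner Tnip1 (−1.11 ± 0.21, adjusted p = 0.00182). Piericidin A raised 13 of the 21 without LPS (15.7% of all genes) and lowered 3 under LPS (17%). The count was 5 without mouse 496 or the block and 7 without mouse 520, and the calls of these 4 genes were kept whichever 1 mouse was left out. Of 25 immediate early and MAP kinase feedback genes, 13 had a called interaction, all lower (52.0%, median −1.01), at least 10 whichever 1 mouse was left out and 5 without the block. The phosphatase Dusp1, which inactivates p38 and JNK, was 59.3, 24.2, 36.2, 40.2 and 39.5 CPM untreated and 200, 76.6, 120.5, 141 and 149 CPM with piericidin A, 488, 257, 329.6, 479.9 and 423 CPM with LPS and 456, 356, 478, 475 and 524 CPM with both. Piericidin A raised it before LPS in each mouse (interaction −1.52 ± 0.16, adjusted p = 1.49e-05). The phosphatase gene Dusp16 (−1.65 ± 0.23, adjusted p = 0.000153) and Jun, the AP-1 subunit (+0.70 without and −0.59 with piericidin A, interaction −1.29 ± 0.16, adjusted p = 6.26e-05), followed. Trib1, a pseudokinase that degrades C/EBPα, was lowered by piericidin A under LPS (−1.71 ± 0.17), while its level before LPS was not called as changed (−0.14 ± 0.16, interaction −1.57 ± 0.23, adjusted p = 0.000218, call lost without the block).

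**Figure D4:**
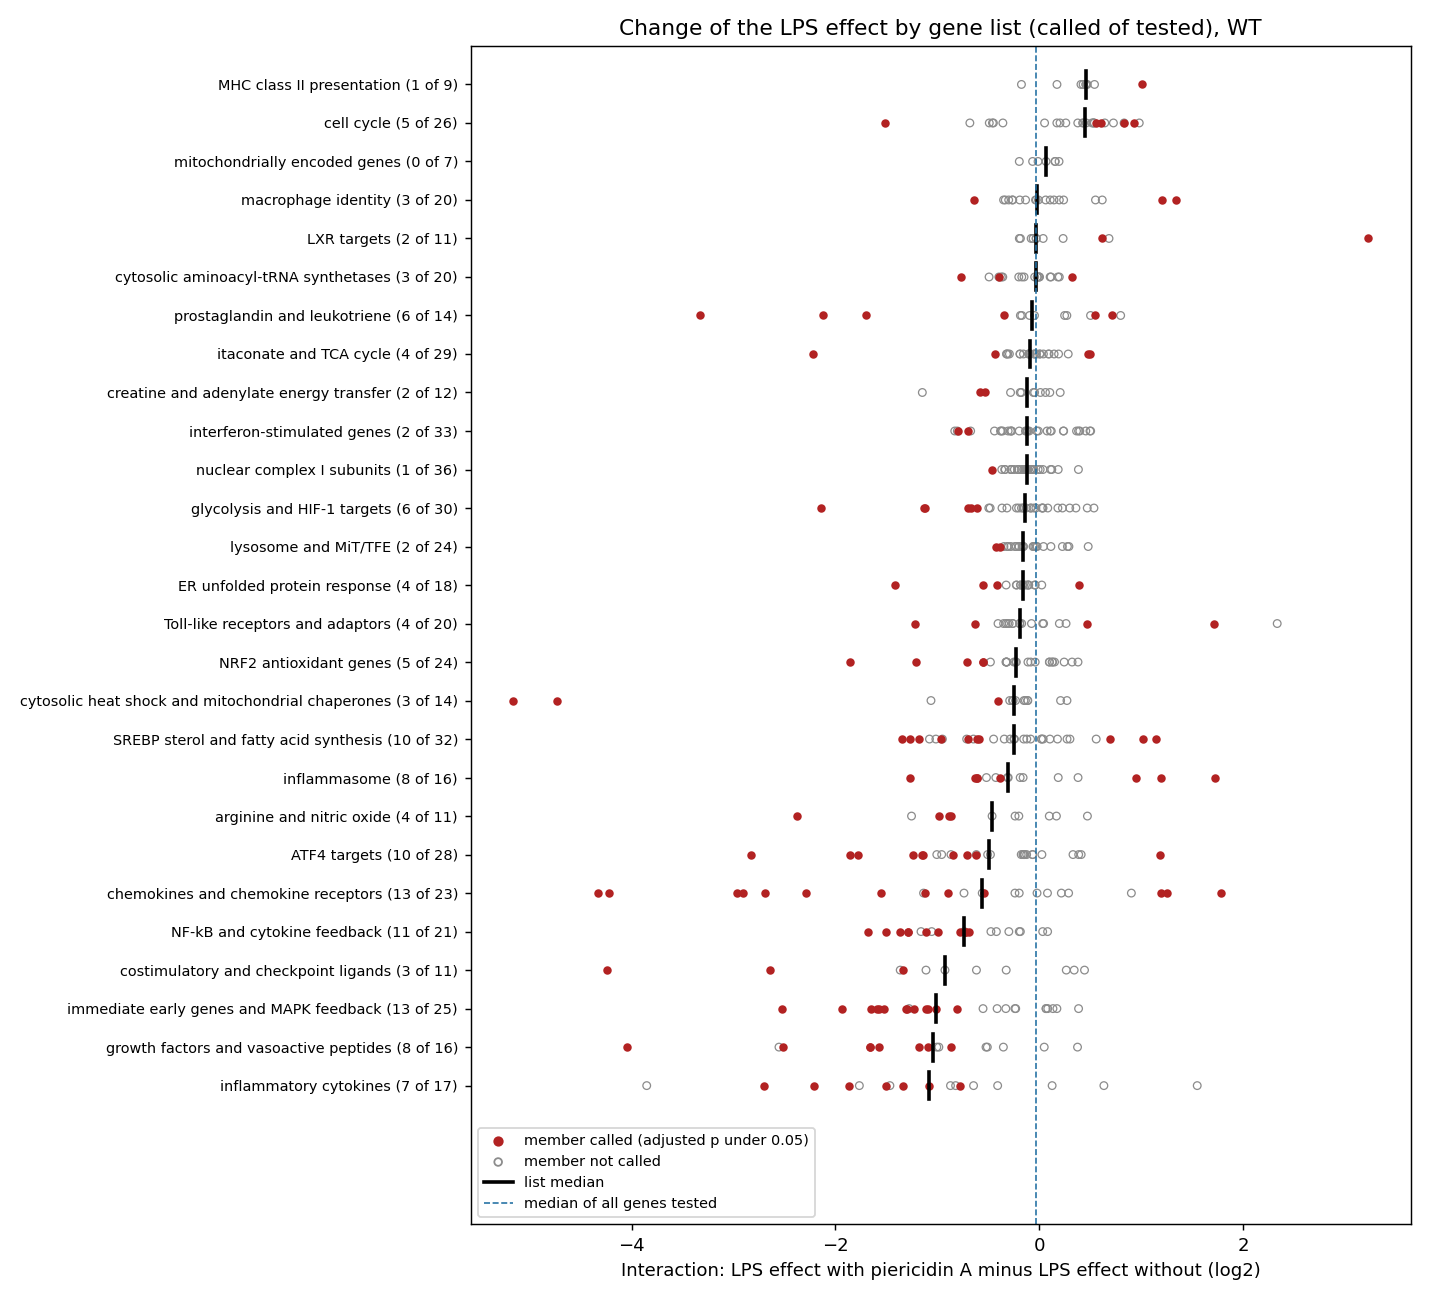
Interaction (horizontal axis, log2) of each tested member of the 27 gene lists (rows, with called of tested members). Filled points were called, open points were not, black bars are list medians and the dashed line is the median of all genes tested. The medians lie between −1.08 for inflammatory cytokines and +0.46 for MHC class II genes, and all 33 interferon-stimulated genes lie between −0.83 and +0.51.

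Growth factor and vasoactive peptide genes had 8 called interactions of 16, all lower (median −1.05), 4 without mouse 449. Adm, the vasodilator adrenomedullin, was 0.081, 0.0618, 0.134, 0 and 0.126 CPM untreated, 1.43, 0.691, 0.348, 2.26 and 0.926 CPM with piericidin A, 2.03, 3.08, 2.1, 6.13 and 5.55 CPM with LPS and 2.93, 1.02, 1.43, 4.68 and 3.43 CPM with both. The libraries with piericidin A alone lay above the untreated ones, and the interaction was −4.04 ± 0.61, adjusted p = 0.000296, a value that rests on few counts in untreated cells. Inhba, the activin A subunit (−1.66 ± 0.27, adjusted p = 0.000583), and Plaur, the urokinase receptor (−1.09 ± 0.17, adjusted p = 0.000358, call lost without the block), had lower interactions too. In each mouse Inhba and Plaur were higher with piericidin A than untreated, and higher with both than with LPS. For Plaur the latter step was very small in mouse 496 (312.6 and 312.8 CPM). Inhba was between 0.805 and 1.34 CPM untreated and between 3.25 and 9.57 CPM with piericidin A. With LPS it was between 8.11 and 10.8 CPM, and with both between 11.6 and 25.3 CPM. Of 11 costimulatory and checkpoint ligand genes, 3 had a lower interaction: Cd274, which encodes PD-L1 (−1.34 ± 0.19, adjusted p = 0.000201, less certain because of an overlapping gene), Cd83 (−2.64 ± 0.45, adjusted p = 0.000833) and Tnfrsf9, the receptor 4-1BB (−4.24 ± 1.03, adjusted p = 0.0104, call lost without mouse 496). Cd274 was between 67.2 and 102 CPM untreated and between 218.5 and 391 CPM with piericidin A. With both it was between 1374 and 2579 CPM, higher in each mouse than with LPS (between 1111 and 2075 CPM). Tnfrsf9 was between 0 and 0.081 CPM in untreated cells, so the size of its interaction rests on very few counts. Prostaglandin and leukotriene genes had 6 of 14 called, 4 lower and 2 higher, and 3 without mouse 496. Beside Ptgs2, the phospholipase gene Pla2g4a, which releases arachidonic acid, was lowered under LPS (−1.10 ± 0.17, interaction −1.70 ± 0.26, adjusted p = 0.000296), as was the prostaglandin E synthase Ptges (−0.82 ± 0.28, interaction −2.13 ± 0.43, adjusted p = 0.00317). Hpgds, the synthase of prostaglandin D2 in blood cells, was repressed less (+0.71 ± 0.18, adjusted p = 0.0146), a call lost without the block or mouse 449, 496 or 520.

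Among Toll-like receptors and adaptors, 2 were lower and 2 higher of 20, and 2 were called without mouse 449, 453, 496 or 520. Irak2, a kinase of the MyD88 pathway, was induced less (−1.22 ± 0.17, adjusted p = 0.000128), and Ticam1, the adaptor TRIF, too (−0.63 ± 0.20, adjusted p = 0.0386), while Irak4 was repressed less (+0.47 ± 0.13, adjusted p = 0.0164) and Tlr9 was described above. The calls of Ticam1 and Irak4 were lost without the block or mouse 449, 453, 496 or 520. Of 9 MHC class II genes, Ciita, the master activator of class II expression, was the 1 called (+1.01 ± 0.26, adjusted p = 0.0138). It was 8.12, 13.4, 9.18, 9.8 and 3.6 CPM with LPS and 12.5, 16.1, 15.6, 19.5 and 11.7 CPM with both, higher in each mouse. Its call was lost without the block or mouse 453 or 496, although 3 of the 8 members tested without mouse 496 were called then. Of 20 macrophage identity genes, 3 were called. Irf8, a transcription factor of monocyte and dendritic cell fate, was 639, 352, 218, 524 and 335 CPM with LPS and 954, 552, 408, 1727 and 992 CPM with both (interaction +1.35 ± 0.24, adjusted p = 0.0011, call lost without the block). Cebpa, a myeloid transcription factor, was repressed less (+1.21 ± 0.23, adjusted p = 0.00194, also lost without the block), and Spi1, which encodes PU.1, was induced less (−0.64 ± 0.17, adjusted p = 0.0162, call lost without the block or mouse 449, 496 or 520).

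In 3 lists of glucose, TCA cycle and arginine metabolism the share called lay between 13.8% and 36.4%. Of 30 glycolysis and HIF-1 target genes, 6 were called, all lower (20.0%, median −0.14), and 2 without mouse 496 or 520. Piericidin A raised 16 of the 30 without LPS, against 15.7% of all genes. Pfkfb3, which makes the allosteric activator of glycolysis fructose-2,6-bisphosphate, had an LPS effect of +4.22 without and +2.09 with piericidin A (interaction −2.14 ± 0.30, adjusted p = 0.000145). The glucose transporter gene Slc2a1 (−1.12 ± 0.29, adjusted p = 0.0158, call lost without the block or mouse 496), Ndrg1 (−1.13 ± 0.29, adjusted p = 0.0127, lost without the block or mouse 520) and the oxidase gene Ero1l (−0.67 ± 0.19, adjusted p = 0.0255, lost without the block or mouse 452, 496 or 520) had lower interactions too. Of 29 genes of itaconate and the TCA cycle, 4 were called (13.8%), none of which kept its call without mouse 496, while 1 was called without mouse 520 and 2 without mouse 449 or 452. Acod1, the itaconate-forming enzyme, was raised by piericidin A before LPS (+2.11 ± 0.38) and not called under LPS (−0.11 ± 0.36, interaction −2.22 ± 0.52, adjusted p = 0.00862, lost without the block or mouse 496). Among 11 arginine and nitric oxide genes, 4 were called, all lower, and at least 3 whichever 1 mouse was left out. They were Nos2, the inducible nitric oxide synthase (−2.38 ± 0.57, adjusted p = 0.00901, lost without mouse 453 and resting on few counts in untreated cells), the tetrahydrobiopterin enzyme gene Gch1 (−0.99 ± 0.19, adjusted p = 0.00189), the arginine transporter gene Slc7a2 (−0.88 ± 0.19, adjusted p = 0.00439) and Odc1, the first enzyme of polyamine synthesis (−0.86 ± 0.17, adjusted p = 0.00288), of which Gch1, Slc7a2 and Odc1 lost the call without the block.

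Most targets of ATF4, the transcription factor of the integrated stress response, were raised by piericidin A without LPS, and fewer had a called interaction. Of 28 tested targets, piericidin A raised 23 without LPS and 12 under LPS, against 15.7% and 14.5% of all genes. The interaction was called for 10, of which 9 were lower and 1 higher (median −0.49), with 6 called without mouse 496 and 2 without the block. Atf4 itself had LPS effects of +0.17 and −0.97 (interaction −1.14 ± 0.16, adjusted p = 0.000194). Asns, asparagine synthetase (−0.85 ± 0.16, adjusted p = 0.00149), Mthfd2, a mitochondrial folate enzyme (−1.24 ± 0.15, adjusted p = 5.86e-05), and Slc7a5, a transporter of large neutral amino acids (−1.78 ± 0.24, adjusted p = 9.54e-05), had lower interactions too. Under LPS, Mthfd2 was higher with piericidin A in each mouse (between 44.6 and 77.2 CPM, against between 26.4 and 50.9 CPM without it). Asns was higher in every mouse but 496. Of the calls of Atf4, Asns, Mthfd2 and Slc7a5, that of Slc7a5 was kept without the block. Of 20 cytosolic aminoacyl-tRNA synthetase genes, 3 were called, namely Rars (−0.77 ± 0.11, adjusted p = 0.000229), Gars (−0.40 ± 0.11, adjusted p = 0.0246) and Qars (+0.32 ± 0.11, adjusted p = 0.0471), and 1 was called without mouse 449, 496 or 520 or without the block. Of 24 NRF2 antioxidant genes, 5 were lower (20.8%), 3 without mouse 496 and 1 without the block. They included Nfe2l2, which encodes NRF2 (+0.54 without and −0.66 with piericidin A, interaction −1.21 ± 0.14, adjusted p = 2.49e-05), the cystine transporter gene Slc7a11 (−1.86 ± 0.35, adjusted p = 0.00189), glutathione reductase Gsr (−0.71 ± 0.16, adjusted p = 0.00576) and the ferritin gene Fth1 (−0.55 ± 0.13, adjusted p = 0.00856, lost without the block or mouse 496). Of 18 genes of the unfolded protein response of the endoplasmic reticulum, 3 were lower and 1 higher, 2 were called without mouse 449, 496 or 520 and none was called without the block. Herpud1 (−1.42 ± 0.22, adjusted p = 0.000329) and Hspa5, the chaperone BiP (−0.55 ± 0.12, adjusted p = 0.00418), kept their calls whichever 1 mouse was left out, unlike Manf (−0.42 ± 0.12, adjusted p = 0.031) and Pdia4 (+0.40 ± 0.13, adjusted p = 0.0464). Of 14 heat shock and mitochondrial chaperone genes, 3 were called, Hspa1a, Hspa1b and the constitutive Hspa8 (−0.40 ± 0.11, adjusted p = 0.0205, lost without the block or mouse 449, 496 or 520).

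Of 32 sterol and fatty acid synthesis genes regulated by SREBP, 7 were lower and 3 higher (31.2%, median −0.25), with 3 called without mouse 520, 5 without mouse 449 and 6 without mouse 453 or 496. Piericidin A lowered 12 of the 32 without LPS and 17 under LPS, against 15.3% and 17% of all genes. Fdft1, squalene synthase (−1.27 ± 0.23, adjusted p = 0.00129, less certain because of an overlapping gene) and Msmo1, a later enzyme of the pathway (−1.18 ± 0.22, adjusted p = 0.00151) were among the lower members, with calls lost without the block, whereas the desaturase gene Fads1 was repressed less (+0.70 ± 0.16, adjusted p = 0.00818, lost without mouse 496 or 520). Of 11 LXR targets, 2 were higher, Arl4c and the cholesterol exporter gene Abcg1 (+0.62 ± 0.20, adjusted p = 0.0429, lost without the block or mouse 449, 452, 496 or 520), and the list median was −0.029.

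Among 26 cell cycle genes, 4 were higher and 1 lower (median +0.45), 1 called without mouse 520 and 3 without mouse 449 or 496. E2f1 (+0.84 ± 0.19, adjusted p = 0.00558) and the replicative helicase subunit Mcm7 (+0.93 ± 0.25, adjusted p = 0.0168, lost without the block or mouse 452, 453 or 520, with a less certain count because of an overlapping gene) were repressed less, and Pcna, the DNA polymerase clamp, rose more (+0.61 ± 0.16, adjusted p = 0.0162, lost without the block or mouse 449, 496 or 520). Myc was the lower one (−1.51 ± 0.37, adjusted p = 0.0106, lost without the block or mouse 520). Of 36 nuclear complex I subunit genes, 1 was called (2.78%), Ndufs4 (−0.46 ± 0.13, adjusted p = 0.0256, lost without the block or mouse 449, 496 or 520), and piericidin A raised 13 of the 36 without LPS (15.7% of all genes). The interaction was called for 0 of the 7 tested mitochondrially encoded genes by edgeR (0 with an unadjusted p under 0.05) and for 0 by DESeq2 (0 unadjusted), and the members with the smallest p were mt-Co1 (−0.20 ± 0.14, adjusted p = 0.363) and mt-Nd1 (+0.19 ± 0.16, adjusted p = 0.442). Piericidin A lowered 6 of the 7 both without and under LPS (15.3% and 17% of all genes). Of 12 genes of creatine and adenylate energy transfer, 2 were called, both lower, among them Prkab1, a subunit of AMPK (−0.53 ± 0.13, adjusted p = 0.00878). Of 24 lysosome and MiT/TFE genes, 2 were lower (8.33%), Tfe3 (−0.43 ± 0.12, adjusted p = 0.0234) and Lamp2 (−0.39 ± 0.12, adjusted p = 0.0307), and at most 1 was called whichever 1 mouse was left out, and neither without the block.

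The size of the whole LPS response was summarised per mouse by a score, the mean log2 change with LPS in the direction of LPS over genes that LPS changed at least 2-fold in the other genotype. The WT score used 3807 genes chosen in NDI1 cells, 1996 induced and 1811 repressed. It was 2.19, 1.97, 1.84, 2.06 and 1.94 without piericidin A and 1.80, 1.75, 1.52, 1.40 and 1.34 with it. All 5 mice were lower with piericidin A, and the change was −0.44 ± 0.19 (SD, n = 5; two-sided exact sign-flip permutation test, p = 0.0625, the smallest that 5 mice allow). The mean induction fell by 0.36 on the log2 scale and the mean repression became smaller by 0.53.

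In NDI1 BMDMs, given the same treatments, the interaction was called for 0 of 11464 genes (0%) by edgeR and 0 by DESeq2, with 257 and 221 genes at an unadjusted p under 0.05. The NDI1 score was 1.98 ± 0.11 without and 1.93 ± 0.15 with piericidin A (SD, n = 5), a change of −0.049 ± 0.049 that was negative in 5 of 5 mice (two-sided exact sign-flip permutation test, p = 0.0625). By the median over genes this change was −0.020 (exact sign-flip permutation test, p = 0.438), and with no minimum LPS effect −0.032 (p = 0.25 by the same exact test). The change of the score differed between the genotypes by 0.39 (NDI1 minus WT, two-sided exact permutation test over assignments of the 10 mice, p = 0.00794, the smallest that 5 against 5 allows), and the largest fall in an NDI1 mouse, −0.11, was smaller than the smallest in a WT mouse, −0.22. For single genes, the difference of the interactions was called for 252 of 11853 genes (2.13%). All 252 had an interaction of smaller size in NDI1 cells, and 251 were among the 1653 called in WT. Over 1651 of these that both fits tested, the median size of the interaction was 0.72 in WT and 0.11 in NDI1. These genes were chosen for their call in WT, which enlarges the WT median, so the medians are a description and no comparison of the genotypes. The members with a called difference included Hspa1a (NDI1 interaction +0.062, adjusted p of the difference = 3.10e-05), Ccl3 (−0.47, 7.78e-05), Arl4c (+0.47, 0.000116), Dusp1 (−0.0039, 0.000572), Ccl4 (−0.58, 0.00164), Pfkfb3 (−0.077, 0.00185), Clic5 (−0.34, 0.00359) and Plagl1 (−0.15, 0.029). For Adm the NDI1 interaction was +2.43 with an adjusted p of the difference of 0.00164. Adm was between 0 and 0.791 CPM in untreated NDI1 cells and between 0 and 0.134 CPM with piericidin A, so the size of both values rests on very few counts. The difference was not called for Il1b (−0.73, adjusted p = 0.194), Tnf (−0.48, 0.317) or Nlrp3 (−0.39, 0.488), so a different interaction of these genes in NDI1 cells was not shown. The count of 252 fell to 71 without NDI1 mouse 460, to 76 without WT mouse 496 and to 13 without the block. Of the 40 named genes with a called difference, 5 kept it without the block (Ccl3, Hspa1a, Hspa1b, Jun and Adm), and 20 kept it whichever 1 mouse was left out. DESeq2 did not call the difference of Adm, and that of Plagl1 was lost without WT mouse 449, 453, 496 or 520 or NDI1 mouse 460, 503 or 521.

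**Figure D5:**
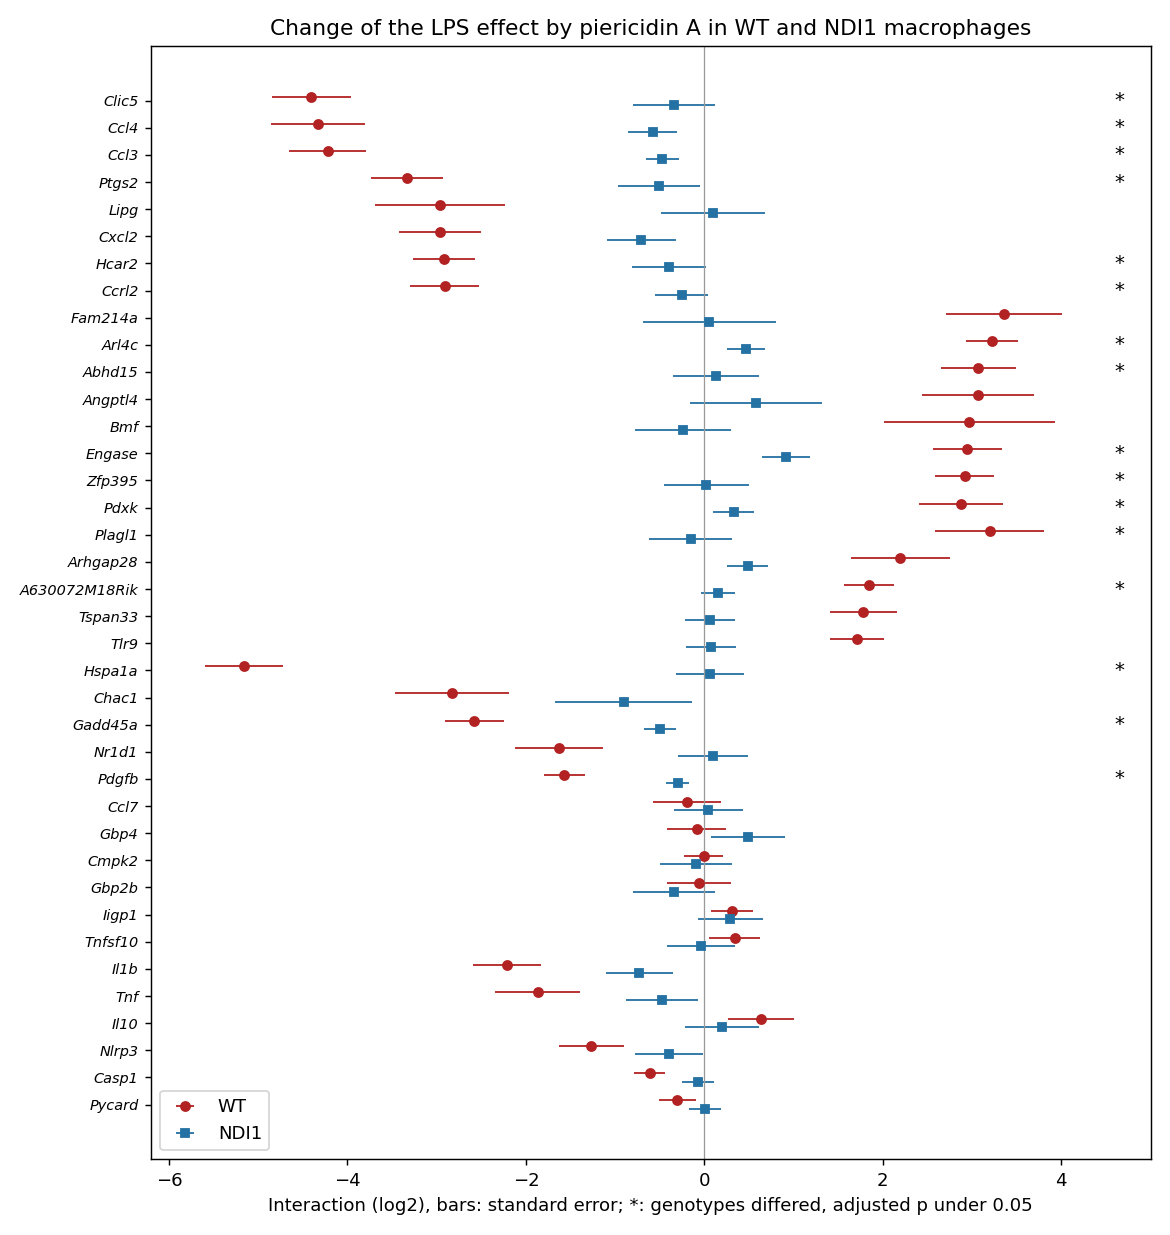
Interaction (horizontal axis, log2 ± SE) of the named genes (rows) in WT (circles) and NDI1 (squares) BMDMs, 5 mice each. An asterisk marks genes whose interaction differed between the genotypes. WT values of the altered genes lie between −5.16 and +3.36, and the NDI1 values of the same genes lie nearer to 0.

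Promoters of the classes were searched for short motifs in the 250 bases before the RefSeq start, on both strands, as a description without a test. A promoter was found for 8976 of the 11456 genes tested. The ISRE core (GAAANNGAA) was in 11.8% of the promoters of preserved inductions, 10.2% of weakened inductions, 4.67% of weakened repressions and 6.56% of all tested genes. The AP-1 motif (TGANTCA) was in 6.54%, 5.76%, 3.65% and 4.22%, and NF-κB matches in 5.29%, 6.33%, 4.46% and 4.49%. The antioxidant response element (TGACNNNGC) was in 12.0%, 15.5%, 12.6% and 12.4%. The cAMP response element (TGACGTCA) was in 2.64%, 3.07%, 1.62% and 2.82%, and the C/EBP-ATF motif (TGATGNAA) in 2.78%, 2.30%, 1.42% and 1.95%. The E-box (CACGTG) was in 8.48%, 9.02%, 9.13% and 8.70%, and the sterol regulatory element (TCACNCCAC) in 0.695%, 1.34%, 0.811% and 0.936%. In the enlarged inductions and repressions, with 77 and 74 promoters, the ISRE core was in 11.7% and 8.11% and the C/EBP-ATF motif in 2.60% and 6.76%. Matches of the antioxidant and cAMP response elements can share letters. Over all 27025 promoters of the table, the shares were 7.16% for the ISRE core, 6.87% for AP-1, 3.75% for NF-κB and 10.1% for the antioxidant response element.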

How the data were processed

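Libraries were prepared from poly(A) RNA. Per the labels and the methods, the authors demultiplexed with bcl2fastq, trimmed with Trimmomatic, aligned to mm10 with STAR and counted reads per gene with HTSeq. The annotation release and the strand setting were not given in the sources used here. The deposited values are raw counts per gene, 43430 rows, of which 968 had no symbol. 1 column of counts that belongs to no sample was not used. All 20 WT libraries entered 1 fit in edgeR 4.0.16 (R 4.3.3) with filterByExpr, TMM factors, the 4 treatments and the mouse. The mouse was kept as a block because the 4 libraries that share a number in their titles were taken to be from the same animal. Deviations from the group means correlated with a mean r of 0.47 within mice (30 pairs, 0.24 to 0.69) and −0.11 between mice (120 pairs). No replicate pair differed by less than sampling noise (lowest chi-square per degree of freedom 15.7 over 40 pairs). NDI1 libraries were fitted the same way, and the difference of the interactions was fitted on all 40 libraries. TMM factors were between 0.70 and 0.91 with LPS and between 1.14 and 1.38 without.

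The genes and lists described were chosen with earlier results of these data known. Named genes had a called interaction and mean LPS effect, reached 1 log2 CPM on average, and had an interaction of the same sign in 5 mice. Of these, the 8 weakened inductions, 8 weakened repressions, 5 enlarged inductions and 5 enlarged repressions with the largest interactions were named. Further named genes were the 6 preserved genes with the largest LPS effect, 6 genes that the study measured, and up to 4 called members per list by smallest p, or 2 where none was called. Genes of which at least 10% of exonic bases overlap another gene were named as less certain. Some genes that these rules select are not reported here. Scores used log2 CPM with a prior count of 2. Statistics were tested on simulated data. Alternatives were DESeq2 1.42.0, RLE factors, no filter, at least 10 counts in every library, no block, all 40 libraries in the fit and leaving out each mouse. List counts without single mice or the block and the HSE motif were added after seeing the data. Promoters are from RefSeq (GRCm38.p6). Mice rather than cultures are the replicates, with 1 library per mouse and treatment, and depth limits the precision of low genes.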

Additional observations from a re-analysis of the deposited data

Results flagged for a closer look

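The interaction in WT differed from that in NDI1 for 252 genes in edgeR's test of the difference (adjusted p under 0.05), and the change of the LPS response score differed by 0.39 between the genotypes. Among the 114 named genes the difference (NDI1 minus WT, log2) was called for 40, above 0 for 32 and below 0 for 8. Without the block 5 of the 40 kept the call (Ccl3, Hspa1a, Hspa1b, Jun and Adm), and 20 kept it whichever 1 mouse was left out. The positive differences of inflammatory and signalling genes were Ccl4 3.76, Ccl3 3.76, Ccrl2 2.66, Ptgs2 2.83, Pla2g4a 1.76, Hcar2 2.52, Il1rn 1.31, Zc3h12a 1.39, Zfp36 1.25, Irak2 1.04, Cd274 1.28 and Cd83 2.41. Those of immediate early, growth factor and other genes were Dusp1 1.52, Dusp16 1.42, Jun 1.30, Trib1 1.40, Adm 6.49, Plaur 0.91, Pdgfb 1.28 and Clic5 4.06. Those of stress and metabolic genes were Hspa1a 5.23, Hspa1b 4.47, Gadd45a 2.09, Herpud1 1.01, Atf4 0.94, Slc7a5 1.37, Rars 0.62, Nfe2l2 0.99, Fdft1 1.04, Msmo1 1.10, Pfkfb3 2.07 and Odc1 0.92. The negative differences were those of Arl4c (−2.75), Abhd15 (−2.93), Engase (−2.03), Zfp395 (−2.89), Pdxk (−2.54), Plagl1 (−3.34), A630072M18Rik (−1.68) and Mcm7 (−1.28), whose WT interactions were positive. The size for Adm rests on very few counts in both genotypes.

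Of 128 sets of 5 values checked, 7 had a sample far from the others, where chance gives about 1 in 20. The interaction of Tnf was −2.90 in mouse 496 and between −1.46 and −1.23 in the other mice. That of Asns was −1.60 in mouse 496 and between −0.73 and −0.60 in the others. The neutrophil marker sum of mouse 496 stood apart in all 4 treatments (440.3, 963, 1437 and 2573 CPM), and the macrophage marker sum with LPS was 34893 CPM in mouse 520. The part of these samples in the results was not tested beyond leaving each mouse out.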

How the results depend on the processing

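The WT interaction was called for 1653 genes and for between 1545 and 2066 with DESeq2, RLE factors, no filter, a stricter filter or all 40 libraries in the fit. Without the replicate block 354 genes were called, all among the 1653, and leaving out 1 mouse gave between 706 and 1421. The difference between genotypes was called for 252 genes, for 440 with DESeq2, 614 with no filter and 13 without the block, and for between 71 and 389 when 1 mouse was left out. The NDI1 interaction was called for 0 genes, with 7 called with no filter. Requiring a mean LPS effect of at least 1 gave 344 weakened inductions, 342 weakened repressions, 53 enlarged inductions and 22 enlarged repressions. Without the block there were 126, 162, 17 and 11, and without 1 mouse between 270 and 548, 280 and 552, 40 and 92, and 31 and 70. With the direction from LPS minus untreated, 42 repressions were enlarged. With a bound of 0.5, 249 inductions and 56 repressions were preserved. The share of higher calls was 47.5% with TMM and 52.1% with RLE factors. The scores and their difference kept their direction under the alternatives tried, with a change of the WT score between −0.49 and −0.28 and of the NDI1 score between −0.059 and −0.020. Of the alternatives for the 114 named genes, 1053 kept the call or its absence, 179 lost the call, 59 of them without the block and 34 without mouse 496, and 0 reversed. The causes were not tested beyond what each alternative changes, fewer samples included.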
